A study of Homo sapiens with 9 samples.

Results

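The RNA levels of 6 genes, whose protein products are synucleins or have been reported as substrates or binding partners of the kinase PLK2, were followed in HEK293T cells, a human embryonic kidney line. The 6 genes were listed by name for their reported link to PLK2, with earlier results of these data known, and all 6 are among the 17083 genes of the deposited table. They are SNCB and SNCG, which encode beta- and gamma-synuclein, SIPA1L1, NPM1, TSC1 and NSF. All 9 cultures carried the genotype WT and each overexpressed a FLAG construct: PLK2-FLAG in 3 libraries (PLK2), PLK2(D223N)-FLAG, which carries a kinase-domain substitution, in 3 libraries (PLK2(D223N)) and the FLAG Vector in 3 libraries (Vector). Per the study's design text the replicates are biological. The time of collection, the amount of construct and the kinase activity were not given in the sources used here, and expression came from introduced constructs rather than from the cells' own gene.

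PLK2 is a polo-like kinase made in response to serum, cell stress and, in neurons, strong synaptic activity. It acts mainly by phosphorylating proteins or by binding them, so that most of what is known of it and these 6 proteins concerns the protein and not the RNA. In neurons PLK2 phosphorylates SIPA1L1 (SPAR), a postsynaptic GTPase-activating protein for Rap, which is then ubiquitinated by the SCF beta-TrCP ligase and degraded. It binds NSF, the ATPase that takes spent SNARE complexes apart, and phosphorylates synucleins, small presynaptic proteins that bind vesicle membranes. In dividing cells it phosphorylates NPM1 (nucleophosmin), a nucleolar histone chaperone that also takes part in centriole duplication, and it has been reported to bind TSC1 (hamartin), a subunit of the complex that restrains mTORC1. RNA levels measure neither phosphorylation nor protein turnover.

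The promoters of the most and the least abundant of these RNAs are shown, since these genes mark both ends of the range of RNA levels. Each line gives the 100 bases just before the RefSeq start of the gene (RefSeq, GRCh38.p14), 5′ to 3′ on the gene's strand, with CG dinucleotides in capitals. They are chr5:171387749-171387848 (plus strand) for NPM1, chr5:176630535-176630634 (minus strand) for SNCB and chr10:86955659-86955758 (plus strand) for SNCG.
NPM1: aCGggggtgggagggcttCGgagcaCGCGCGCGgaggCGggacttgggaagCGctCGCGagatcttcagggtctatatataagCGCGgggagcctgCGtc
SNCB: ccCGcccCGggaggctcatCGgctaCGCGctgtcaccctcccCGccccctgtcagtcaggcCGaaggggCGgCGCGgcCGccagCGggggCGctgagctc
SNCG: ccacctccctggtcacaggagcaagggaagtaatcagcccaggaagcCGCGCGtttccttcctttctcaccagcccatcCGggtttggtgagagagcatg
The stretch shown holds 13 CG dinucleotides for NPM1, 13 for SNCB and 4 for SNCG. Over the 250 bases before the start, NPM1 had 29, SNCB 26 and SNCG 6, against a median of 19 for the 13668 listed genes with a promoter in the RefSeq table. At least as many CG dinucleotides as in SNCG were found in 83.3% of these genes, as in SNCB in 28.7% and as in NPM1 in 20.4%. RefSeq and GENCODE place the starts of these 3 genes differently. The SNCG stretch ends at 86955758, well before the GENCODE start at 86958618. The NPM1 stretch lies inside the GENCODE gene, which starts at 171387116. For SNCB the 2 starts lie close together, with the GENCODE start at 176630556. CG dinucleotides before the GENCODE starts were not counted. The other members had 34 (NSF, reached by 9.8% of genes), 23 (SIPA1L1, 38.2%) and 22 (TSC1, 41.5%). Before its RefSeq start, SNCG was thus poor in CG dinucleotides among listed genes. SNCB and NPM1 resembled each other in this count and differed widely in RNA. This is a description of the letters, with no measurement of methylation or of factor binding.

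All libraries were of like depth, from 14288165 to 16510186 estimated counts. PLK2 RNA followed the labels, with 23744 ± 2384 CPM (counts scaled to library size, on the TMM scale) in PLK2, 12358 ± 1650 CPM in PLK2(D223N) and 3.42 ± 0.64 CPM in Vector libraries (SD, n = 3 each). The constructs were thus not at the same RNA level, and PLK2 RNA was 0.94 higher on the log2 scale in PLK2 than in PLK2(D223N) libraries (SE 0.09, edgeR quasi-likelihood test, adjusted p = 4.99e-05). Vector replicate 1 stood apart from the other Vector libraries: the chi-square per gene was 18.1 against Vector replicate 2 and 10.95 against Vector replicate 3, and 1.64 to 2.83 in the 6 pairs of PLK2 or of PLK2(D223N) libraries. Of the markers of the labelled epithelial cell type, KRT18 was at 69.6 TPM and KRT8 at 23.7 TPM (means of 9 libraries), with EPCAM at 2.74 TPM and CDH1 at no more than 1.64 TPM in any library. Summed epithelial markers (4 of 5, KRT19 not analysed here) were at 95.8 to 97.6 TPM in PLK2, 96.7 to 99.2 TPM in PLK2(D223N) and 93.3 to 103.1 TPM in Vector libraries. Neuronal markers (6 of 6) summed to 8.59 to 9.91 TPM in PLK2, 10.2 to 12.1 TPM in PLK2(D223N) and 9.46 to 11.2 TPM in Vector, of which GAD1 made up most at a mean of 8.34 TPM, while SNAP25 was at 0.042 TPM and STMN2 at 0.016 TPM. Microglial markers (5 of 7) summed to 1.04 to 1.19 TPM in PLK2, 0.36 to 1.06 TPM in PLK2(D223N) and 0.87 to 1.46 TPM in Vector. Fibroblast markers (4 of 5) summed to 4.53 to 5.50 TPM in PLK2, 4.98 to 5.79 TPM in PLK2(D223N) and 4.62 to 5.22 TPM in Vector. Neurofilament and renal genes known from HEK293 cells (4 of 4) summed to 1.42 to 1.74 TPM in PLK2, 1.47 to 1.74 TPM in PLK2(D223N) and 1.17 to 2.00 TPM in Vector. No marker in the table was at 0 in every library.

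The 6 RNAs differed in level by several orders of magnitude, in the same order in each of the 9 libraries. NPM1 (NCBI gene 4869, plus strand of chromosome 5, 171387116 to 171411137, GRCh38 with GENCODE 29 as for the genes that follow) was at 5865 TPM, a measure scaled for transcript length (mean of 9 libraries, range 5283 to 6237). It ranked 15 of 17083 genes and took 0.587% of all TPM. NSF (gene 4905, chromosome 17, 46590669 to 46757464, plus strand) was at 83.7 TPM (74.75 to 91.1), 70.0-fold below NPM1 and rank 1939. TSC1 (gene 7248, chromosome 9, 132891348 to 132946874, minus strand) was at 22.5 TPM (19.68 to 23.27), rank 6019.

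The lower members included both synucleins. SIPA1L1 (gene 26037, chromosome 14, 71320449 to 71741229, plus strand) was at 13.07 TPM (12.36 to 13.46), rank 7770. SNCB (gene 6620, chromosome 5, 176620084 to 176630556, minus strand) was at 2.95 TPM (2.09 to 3.82), rank 10715. SNCG (gene 6623, chromosome 10, 86958618 to 86963260, plus strand) was at 0.914 TPM (0.51 to 1.54), rank 12102. The ranges of neighbours in this order did not overlap, and the smallest step was the 1.72-fold difference between TSC1 and SIPA1L1. The order by mean was the same with FPKM in place of TPM and when any library was left out.

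**Figure D1:**
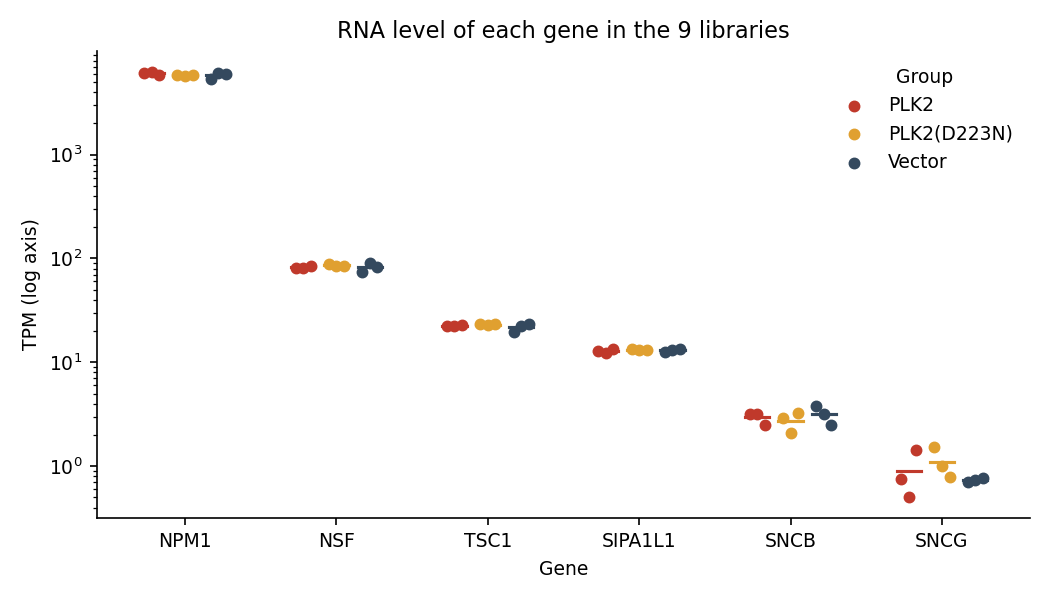
TPM of each of the 6 genes (log axis) in the 9 libraries, points coloured by group (PLK2, PLK2(D223N), Vector; n = 3 each), with a bar at each group mean. NPM1 lay near 5865 TPM and SNCG near 0.914 TPM, and the ranges of neighbouring genes did not overlap.

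The precision differed with the level. NPM1 rested on 48944 to 57417 counts per library, NSF on 2660 to 2838, TSC1 on 1498 to 1773 and SIPA1L1 on 810 to 962, whereas SNCB had 20 to 41 and SNCG 2 to 6. The coefficient of variation within groups was 3.93% for NPM1, where counting error alone gives 0.433%, 4.04% for NSF (counting 1.91%) and 3.50% for TSC1 (2.45%). For SIPA1L1 it was 1.63% (3.35%), for SNCB 20.8% (18.7%) and for SNCG 36.5% (50.7%). The spread of SIPA1L1 and of both synucleins was therefore near or under what counting error gives, and that of NPM1 was well above it.

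Some members could share reads with other genes. RefSeq lists 50 pseudogenes named after NPM1 and 1 named after NSF, none of them in the deposited table, and estimated counts of NPM1 were fractional in 7 of 9 libraries, those of the other members in 0 of 9. The NPM1 level is therefore uncertain to the extent that reads were divided among copies. SNCG overlaps MMRN2 on the opposite strand (0.12 TPM, 2 to 7 counts per library) and TSC1 overlaps GFI1B (0.0256 TPM, 0 to 1 counts). The strand setting was not given in the sources used here, so that reads of SNCG and of MMRN2 in the shared stretch cannot be told apart, while for TSC1 the partner has at most 1 count.

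With PLK2 overexpressed, none of the 5 members that could be tested passed the test of a change against Vector. SNCB, SIPA1L1, NPM1, TSC1 and NSF passed the filter on low counts and SNCG did not. In RNA from whole cultures, fewer cells with a transcript and less of it per cell cannot be told apart. In edgeR's quasi-likelihood test, fitted to 12924 genes with Benjamini-Hochberg adjustment, 0 of 5 had an adjusted p below 0.05 in PLK2 vs Vector, where 0.511% of all genes did, 0 of 5 in PLK2(D223N) vs Vector (0.0232% of all genes) and 0 of 5 in PLK2 vs PLK2(D223N) (0.162%). The test of any difference over the 3 groups also called 0 of 5, against 0.364% of genes, with adjusted p from 0.488 for NPM1 to 0.981 for NSF. With shares this low, 0 of 5 is near the background and sets these genes apart from no other genes. DESeq2 likewise called 0 of 5 in each comparison, where it called 0.68%, 0.041% and 0.182% of all genes, in the same order. With limma 0 of 5 were called in each, beside 19, 3 and 11 of 11998 genes. At an unadjusted p below 0.05 there were 0, 0 and 1 members in the 3 comparisons, against 2115, 1102 and 781 of all genes. The median log2 fold change of the 5 was -0.02 in PLK2 vs Vector, -0.04 in PLK2(D223N) vs Vector and 0.01 in PLK2 vs PLK2(D223N), beside medians over all tested genes of -0.00, 0.01 and -0.00. The comparisons share libraries and are not independent of each other.

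**Figure D2:**
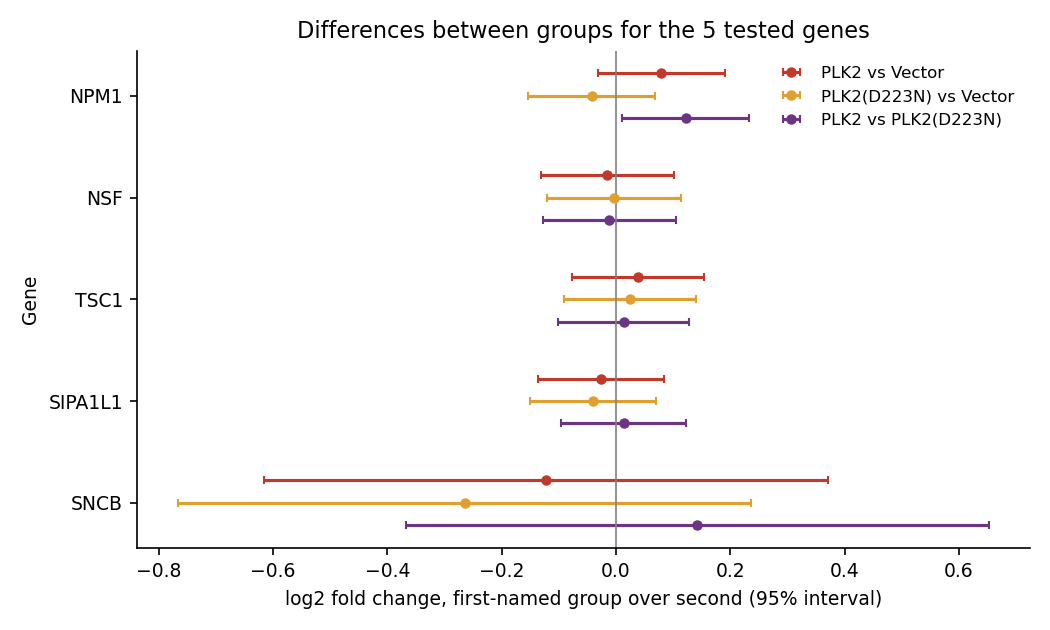
Log2 fold change of the 5 tested genes (points) with 95% intervals from the edgeR fit (bars) in PLK2 vs Vector, PLK2(D223N) vs Vector and PLK2 vs PLK2(D223N), the first-named group over the second. Every interval includes 0 apart from NPM1 in PLK2 vs PLK2(D223N), which runs from 0.01 to 0.23, and the SNCB intervals are the widest.

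SIPA1L1, the Rap GTPase-activating protein that PLK2 marks for degradation in neurons, varied least. It was at 56.1, 54.4 and 57.0 CPM in PLK2 replicates 1 to 3, at 55.6, 54.6 and 55.7 CPM in PLK2(D223N) and at 57.2, 56.2 and 57.2 CPM in Vector. The PLK2 libraries overlapped both other groups, and the 3 PLK2(D223N) libraries lay just below the 3 Vector libraries. The log2 fold change was -0.03 in PLK2 vs Vector (SE 0.05, adjusted p = 0.807), and its 95% interval corresponded to a difference in level between -9.07% and 5.94%. In PLK2(D223N) vs Vector it was -0.04 (95% interval -0.15 to 0.07, adjusted p = 0.786), and in PLK2 vs PLK2(D223N) 0.01 (-0.10 to 0.12, adjusted p = 0.990). Libraries of PLK2(D223N) and Vector did not overlap for 1 of the 5 members, SIPA1L1, nor for 13.9% of all tested genes. In TPM the same libraries did overlap, at 13.1 to 13.36 TPM in PLK2(D223N) and 12.63 to 13.34 TPM in Vector.

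Other Rap and Ras regulators were followed as a list of 20 genes, 19 of them tested, and 0 passed the test in either direction in each comparison. The close relatives of SIPA1L1 were lower in level than SIPA1L1, with means over 9 libraries of 6.02 TPM for SIPA1, 5.05 TPM for SIPA1L3 and 3.82 TPM for SIPA1L2. Of other PLK2 substrates reported from neurons, RAPGEF2, a Rap exchange factor, was at 30.2 TPM. RASGRF1, a Ras exchange factor, had 3 counts in all 9 libraries together and was not tested. The smallest p of the list in PLK2 vs Vector belonged to RAPGEF1, another Rap exchange factor, at 34.6 ± 1.42 TPM in PLK2 and 38.2 ± 1.63 TPM in Vector libraries (SD, n = 3 each). It differed by -0.15 on the log2 scale (SE 0.06, edgeR adjusted p = 0.222). SIPA1L3 differed by -0.18 (SE 0.07, adjusted p = 0.241). The SCF beta-TrCP ligase that acts on SIPA1L1 was tested with 5 of 5 subunits, and 0 passed in each comparison. Its smallest p was that of SKP1, the adaptor between cullin and F-box protein, with 0.07 (SE 0.05, adjusted p = 0.438).

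NSF, the SNARE-disassembly ATPase, was at 168, 173 and 172 CPM in PLK2 replicates 1 to 3, at 176, 169 and 172 CPM in PLK2(D223N) and at 162, 185 and 172 CPM in Vector. Both the lowest and the highest library were Vector libraries, replicates 1 and 2, and the groups overlapped throughout. The log2 fold change was -0.02 in PLK2 vs Vector (SE 0.05, 95% interval -0.13 to 0.10, adjusted p = 0.901), -0.00 in PLK2(D223N) vs Vector (-0.12 to 0.11, adjusted p = 0.987) and -0.01 in PLK2 vs PLK2(D223N) (-0.13 to 0.10, adjusted p = 0.990).

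Its adaptors, the SNAP proteins that load NSF onto SNARE complexes, were also present. NAPA was at 73.4 TPM, NAPG at 18.4 TPM and NAPB at 13.02 TPM (means of 9 libraries), beside 83.7 TPM for NSF. In PLK2 vs Vector NAPA differed by -0.08 (SE 0.07, adjusted p = 0.592), NAPG by 0.05 (SE 0.08, adjusted p = 0.752) and NAPB by 0.14 (SE 0.08, adjusted p = 0.350) on the log2 scale. Of the 36 SNARE proteins and disassembly partners 33 were tested, and 0 passed the test in either direction in each comparison. The smallest p of the list in PLK2 vs Vector was that of BNIP1, a SNARE of the endoplasmic reticulum, at 35.3 ± 1.78 TPM in PLK2 and 42.2 ± 1.90 TPM in Vector (SD, n = 3 each). Its log2 fold change was -0.25 (SE 0.08, adjusted p = 0.173).

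TSC1, which stabilises the TSC complex, was at 105, 107 and 105 CPM in PLK2 replicates 1 to 3, at 104, 104 and 107 CPM in PLK2(D223N) and at 97.1, 104 and 109 CPM in Vector. The Vector libraries held the lowest and the highest value of the 9, in replicates 1 and 3. The log2 fold change was 0.04 in PLK2 vs Vector (SE 0.05, 95% interval -0.08 to 0.15, adjusted p = 0.731), 0.02 in PLK2(D223N) vs Vector (-0.09 to 0.14, adjusted p = 0.882) and 0.01 in PLK2 vs PLK2(D223N) (-0.10 to 0.13, adjusted p = 0.990). In Vector replicate 1, NSF and TSC1 were at their lowest and SNCB at its highest of the 9 libraries. Without that library the log2 fold change in PLK2 vs Vector was -0.06 for NSF, -0.01 for TSC1 and 0.08 for SNCB, and none of them was called.

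The partners of TSC1 were TSC2, the GTPase-activating subunit for Rheb, at 29.1 TPM, and TBC1D7, the third subunit, at 42.6 TPM (means of 9 libraries), beside 22.5 TPM for TSC1. TBC1D7 was at 38.0 ± 2.80 TPM in PLK2, 43.7 ± 4.03 TPM in PLK2(D223N) and 46.0 ± 1.19 TPM in Vector (SD, n = 3 each), with a log2 fold change of -0.26 in PLK2 vs Vector (SE 0.08, adjusted p = 0.163). It was called lower in 2 of 18 alternative settings of that comparison, with adjusted p from 0.0276 to 0.469 over the 18. These were without Vector replicate 2 (1656 genes called in all) and with loess corrections for GC content and length (379). The edgeR fit with all libraries called 66 of 12924 genes. TSC2 differed by -0.08 (SE 0.06, adjusted p = 0.551). All 20 genes of the TSC complex and mTORC1 pathway were tested, and 0 passed the test in either direction in each comparison. RPTOR, which encodes raptor, the scaffold of mTORC1, came nearest. It was at 14.1 ± 1.02 TPM in PLK2, 16.5 ± 0.391 TPM in PLK2(D223N) and 16.9 ± 0.364 TPM in Vector, and the PLK2 vs Vector difference was -0.27 on the log2 scale (SE 0.06, adjusted p = 0.0553). RPTOR was called lower in 5 of 18 alternative settings of that comparison. Over the 18 the log2 fold change ran from -0.30 to -0.22 and adjusted p from 0.00706 to 0.302. RPTOR was called by the DESeq2 test (116 genes called in all), with no filter (136) and with the loess corrections (379). It was also called without Vector replicate 1 (363) and without Vector replicate 2 (1656).

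**Figure D3:**
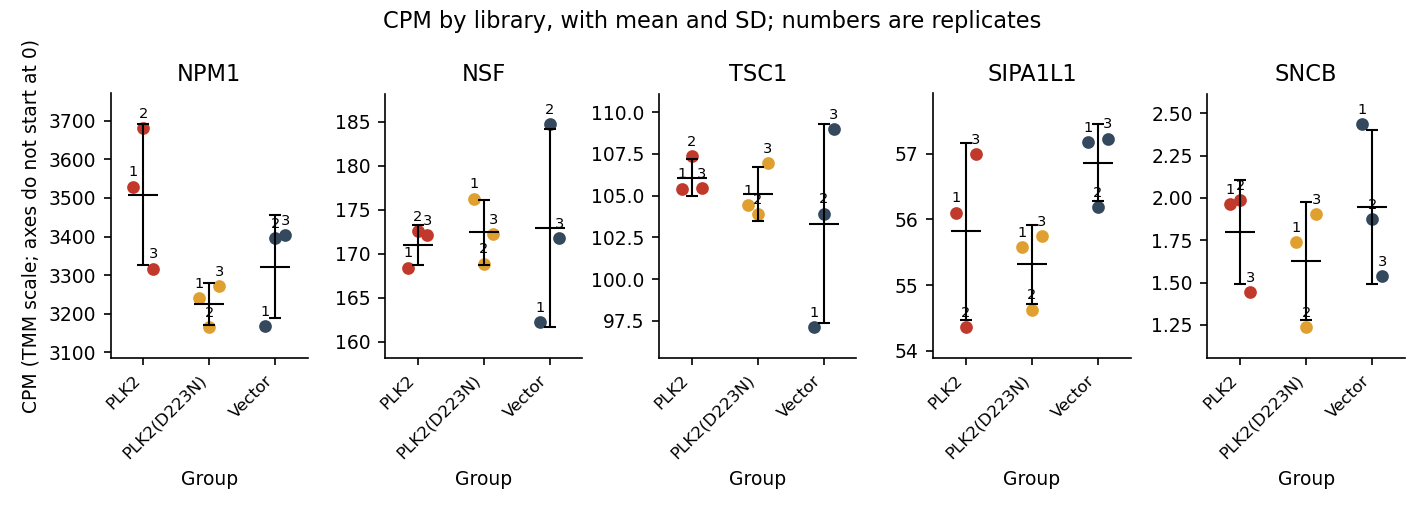
CPM on the TMM scale of the 5 tested genes in each library (points, numbered by replicate), with group means and SD (black), for PLK2, PLK2(D223N) and Vector; the axes do not start at 0. The NPM1 libraries of PLK2 lie above those of PLK2(D223N), and Vector replicate 1 is lowest for NSF and TSC1 and highest for SNCB.

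NPM1 was the member with the smallest p. It was at 3529, 3680 and 3316 CPM in PLK2 replicates 1 to 3, at 3240, 3164 and 3271 CPM in PLK2(D223N) and at 3168, 3395 and 3403 CPM in Vector. Each PLK2 library was above each PLK2(D223N) library, and the Vector libraries overlapped both. The means were 3509 ± 183 CPM in PLK2, 3225 ± 54.8 CPM in PLK2(D223N) and 3322 ± 134 CPM in Vector (SD, n = 3 each). In PLK2 vs PLK2(D223N) the log2 fold change was 0.12 (SE 0.05), a level 8.79% higher with a 95% interval from 0.738% to 17.5% higher. The edgeR p was 0.0338 unadjusted and 0.779 adjusted over all genes, so the difference did not pass. An unadjusted p below 0.05 was reached by 6.04% of all tested genes in this comparison. Libraries did not overlap for 1 of 5 members, NPM1, beside 20.5% of all genes. Against Vector, NPM1 differed by 0.08 with PLK2 (95% interval -0.03 to 0.19, adjusted p = 0.436) and by -0.04 with PLK2(D223N) (-0.15 to 0.07, adjusted p = 0.774). For PLK2 vs Vector, libraries did not overlap for 0 of 5 members and for 20.1% of all genes.

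Whether NPM1 passed differed between settings, and the cause was not tested. Vector libraries are not part of PLK2 vs PLK2(D223N) but enter the shared estimate of the spread. NPM1 was called in 2 of 18 alternative settings. It was not called without Vector replicate 2 (edgeR adjusted p = 0.566) or without Vector replicate 3 (0.877). With the 6 libraries of the 2 groups alone the log2 fold change was 0.12 (SE 0.03, adjusted p = 0.0107), in a fit that called 3.92% of all genes. Without Vector replicate 1 it was 0.12 (adjusted p = 0.0268), in a fit that called 2.43% of genes. With loess corrections for GC content and length it was 0.08 (adjusted p = 0.424), and with limma on log2(TPM + 1) 0.07 (adjusted p = 0.626). Over all 18 settings the estimate ran from 0.07 to 0.16, each above 0. The edgeR interval included 0 with a replicate block (-0.003 to 0.245) and without any single PLK2(D223N) library. It also did so without PLK2 replicate 1 (-0.019 to 0.258) and without PLK2 replicate 2 (-0.037 to 0.210). In the other edgeR settings the interval lay above 0. The settings share libraries and are not independent of each other.

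**Figure D4:**
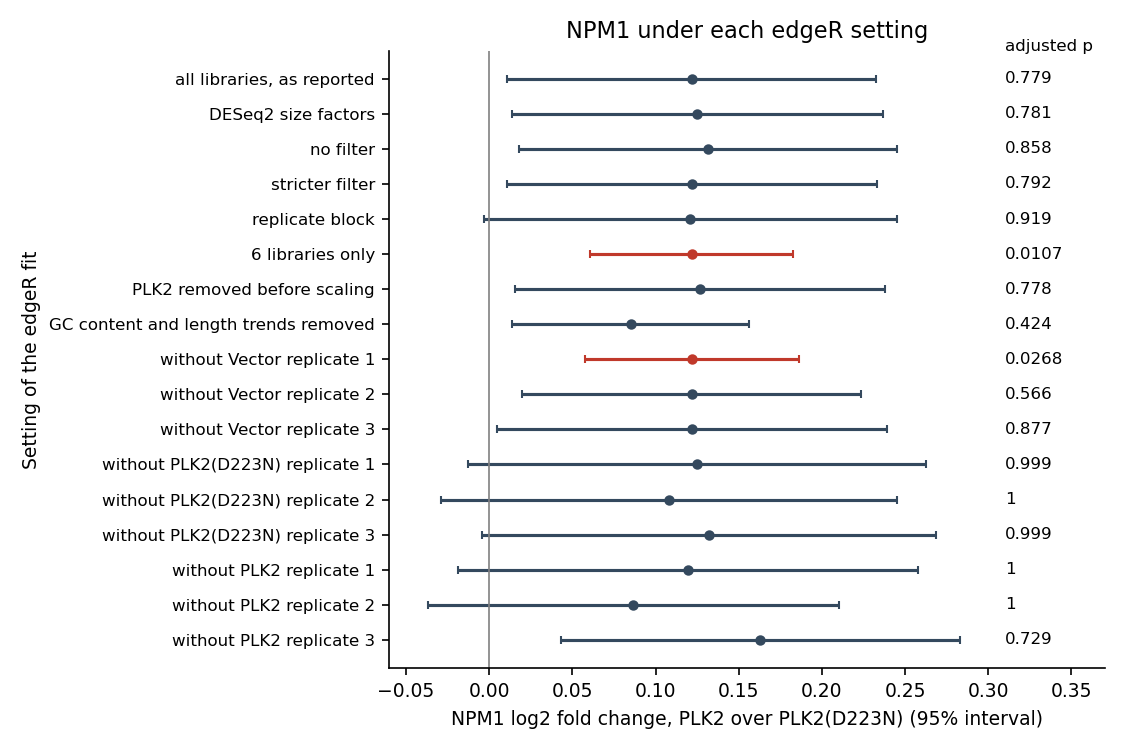
NPM1 log2 fold change of PLK2 over PLK2(D223N) with 95% intervals in each edgeR setting, with the adjusted p at the right; red marks settings in which NPM1 was called. All estimates lie between 0.08 and 0.16, and both red settings leave out Vector replicate 1.

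The nucleolar genes around NPM1 were followed as a list of 18, with 17 tested, and 0 passed the test in either direction in each comparison. NPM3, a relative of NPM1, was at 158 TPM (mean of 9 libraries). It was at 152.6 ± 0.864 TPM in PLK2, 158.4 ± 2.83 TPM in PLK2(D223N) and 163.5 ± 4.07 TPM in Vector (SD, n = 3 each), and it differed by -0.08 in PLK2 vs Vector (log2 scale, SE 0.06, adjusted p = 0.471). UBTF, a transcription factor of RNA polymerase I, had the smallest p of the list in PLK2 vs Vector. It was at 118.5 ± 0.827 TPM in PLK2 and 133.1 ± 5.25 TPM in Vector. The difference was -0.19 on the log2 scale (SE 0.06, adjusted p = 0.137), and UBTF was called lower in 3 of 18 alternative settings. These were the loess corrections (379 genes called in all), without Vector replicate 1 (363) and without Vector replicate 2 (1656). The edgeR fit with all libraries called 66 genes in this comparison.

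SNCB, which encodes beta-synuclein, was at 1.96, 1.99 and 1.44 CPM in PLK2 replicates 1 to 3, at 1.74, 1.23 and 1.91 CPM in PLK2(D223N) and at 2.44, 1.87 and 1.54 CPM in Vector. Each group overlapped the others. The log2 fold change was -0.12 in PLK2 vs Vector (SE 0.23, 95% interval -0.62 to 0.37, adjusted p = 0.804), -0.26 in PLK2(D223N) vs Vector (SE 0.24, -0.77 to 0.24, adjusted p = 0.687) and 0.14 in PLK2 vs PLK2(D223N) (SE 0.24, -0.37 to 0.65, adjusted p = 0.984). Summed counts were 85 in PLK2, 79 in PLK2(D223N) and 93 in Vector. At this depth the interval for PLK2 vs Vector corresponded to a difference between -34.8% and 29.4%.

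SNCG, which encodes gamma-synuclein, was at 3, 2 and 6 counts in PLK2 replicates 1 to 3, at 6, 4 and 4 counts in PLK2(D223N) and at 3, 3 and 4 counts in Vector. In TPM this was 0.76, 0.51 and 1.43 in PLK2, 1.54, 1.00 and 0.78 in PLK2(D223N) and 0.70, 0.74 and 0.77 in Vector. The lowest and the highest CPM of the 9 both came from PLK2 libraries. Summed counts of 11 in PLK2, 14 in PLK2(D223N) and 10 in Vector gave ratios, scaled for library size, of 1.07 for PLK2 over Vector (exact 95% counting interval 0.412 to 2.80), 1.36 for PLK2(D223N) over Vector (0.562 to 3.42) and 0.785 for PLK2 over PLK2(D223N) (0.323 to 1.86). These intervals cover counting error alone, and a change within them was not detectable at this depth.

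The other kinases reported to phosphorylate synucleins were all tested (11 of 11), and 0 passed the test in either direction in each comparison. PLK1, the mitotic polo-like kinase, had the smallest p of the list in PLK2 vs Vector. It was at 164.8 ± 3.28 TPM in PLK2, 142.9 ± 1.85 TPM in PLK2(D223N) and 151.1 ± 7.31 TPM in Vector (SD, n = 3 each). The log2 fold change was 0.12 in PLK2 vs Vector (SE 0.06, adjusted p = 0.305) and 0.26 in PLK2 vs PLK2(D223N) (SE 0.06, adjusted p = 0.137). In PLK2 vs PLK2(D223N), PLK1 was called higher in 5 of 18 alternative settings. Over the 18 the log2 fold change ran from 0.20 to 0.29 and adjusted p from 4.31e-09 to 0.667. PLK1 was called by the DESeq2 test (31 genes called in all), with 6 libraries only (502) and with the loess corrections (92). It was also called without Vector replicate 1 (317) and without Vector replicate 2 (54). The edgeR fit with all libraries called 21 of 12924 genes in this comparison.

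Over the 6 lists together, 0 of 105 tested genes were called in each comparison by edgeR with all libraries. At an unadjusted p below 0.05 there were 22 in PLK2 vs Vector (21.0%, beside 16.4% of all genes), 11 in PLK2(D223N) vs Vector (10.5%, beside 8.53%) and 8 in PLK2 vs PLK2(D223N) (7.62%, beside 6.04%). DESeq2 called 2 list genes in PLK2 vs Vector (RPTOR and DDIT4, an inhibitor of mTORC1 signalling), where it called 0.68% of all genes. It called 0 in PLK2(D223N) vs Vector (0.041% of all genes) and 1, PLK1, in PLK2 vs PLK2(D223N) (0.182%), and limma called 0 in each. Without Vector replicate 1, 4 list genes were called in PLK2 vs Vector (RPTOR and UBTF lower, PLK1 and the casein kinase CSNK1E higher), in a fit that called 2.79% of all genes, and without Vector replicate 2, 12 were called, where 12.7% of all genes were. DDIT4 and CSNK1E are named because they were called there, after their values were seen. In PLK2 vs Vector the list medians of the log2 fold change lay between -0.05 for the nucleolar list and 0.05 for the Rap and Ras list, beside -0.00 for all genes.

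The genes whose log2 CPM followed each member most closely over the 9 libraries were sought as a description, since the libraries share groups and the spread of the Vector samples. For NPM1 they were SUB1 (Pearson r = 0.972), ZNF143 (0.962) and MMADHC (0.959), and 24 genes passed 0.9. For NSF they were CDK14 (0.966), EXOC2 (0.951) and CLASP1 (0.949), with 13 genes past 0.9. For TSC1 they were RSPH4A (0.952), TEFM (0.942) and TMLHE (0.937), with 36 genes past 0.9. SIPA1L1 had 3 such genes, RILPL2 (0.925), CHD4 (0.922) and NAIF1 (0.901). SNCB had 5, led by SPATA5L1 (0.975), GEMIN6 (0.959) and SDCBP2 (0.943), though its own values rest on at most 41 counts. No member was among the 3 closest genes of another.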

How the data were processed

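RNA-seq of 9 HEK293T libraries in 3 groups of 3 was used. Polyadenylated RNA was enriched on oligo(dT) beads, per the labels' protocols. The submitters' processing notes name RSEM 1.3.1, Bowtie2, DESeq2 1.4.5 and the build GRCh38.p13. What each tool did, which annotation was used and whether counting used strand is not given in the sources used here. One deposited table holds estimated counts, TPM and FPKM per gene, per the file headers; 87.1% to 88.5% of the estimated counts of a library lay within 0.005 of a whole number. TPM, made by the authors, served for levels and for the limma alternative, and the authors' FPKM for a check of the order of levels. The 9 further per-library columns of scaled counts were not used. One Vector title has transposed letters, and its column was matched by its number.

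Estimated counts were rounded. Genes were kept by filterByExpr (12924 of 17083), libraries were scaled by TMM (factors 0.973 to 1.02), and all 9 libraries entered edgeR 4.0.16 (R 4.3.3; functions glmQLFit and glmQLFTest with robust = TRUE), group being the only term. P-values are two-sided, adjusted by the Benjamini-Hochberg method over all tested genes, and called below 0.05. The SE is the log2 fold change over the square root of F, and the 95% interval uses the t quantile of the fit. SNCG, below the filter, was compared by an exact conditional interval on summed counts. The 6 genes, the 6 gene lists and the markers were chosen with earlier results of these data known. Besides them, PLK2, close relatives, the list gene with the smallest p in PLK2 vs Vector and the 3 genes closest to each member (log2 CPM, prior count 2) were named by rule. Alternatives were DESeq2 size factors, the DESeq2 1.42.0 test, no filter, a stricter filter (at least 10 counts in all libraries of 1 group, mean CPM at least 1), a replicate block, 6 libraries only, PLK2 removed before scaling, limma 3.58.1 on log2(TPM + 1) where mean TPM was at least 1, loess trends (span 0.3) with GC content and length removed (12841 genes with both values), and each library left out in turn. The counts of list genes under these alternatives were added after seeing the data. Promoters were matched by NCBI gene identifier for 6 of 6 members. The values of 1 gene named by the rule are not reported here.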

Additional observations from a re-analysis of the deposited data

How the results depend on the processing

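The order of the 6 levels was the same with FPKM and without any single library. SNCG, below the filter, was tested only by DESeq2 and by edgeR with no filter, and its DESeq2 values were set against the latter. By DESeq2 its log2 fold change was 0.14 in PLK2 vs Vector, 0.45 in PLK2(D223N) vs Vector and -0.31 in PLK2 vs PLK2(D223N). With no filter these values were 0.14, 0.43 and -0.29, and SNCG was not called. Of 273 log2 fold changes of members under the alternatives, 257 kept their direction and side of the threshold, 2 passed it (NPM1 in PLK2 vs PLK2(D223N)) and 14 changed sign, none of them called. With limma on log2(TPM + 1) these were SIPA1L1 (0.0129) and NSF (0.0546) in PLK2(D223N) vs Vector and SIPA1L1 (-0.0291) and TSC1 (-0.0387) in PLK2 vs PLK2(D223N). The others arose from leaving out 1 library. Over these settings PLK2 vs Vector ran from -0.274 to 0.0817 for SNCB, -0.00625 to 0.0779 for TSC1 and -0.0585 to 0.0341 for NSF, PLK2(D223N) vs Vector from -0.0198 to 0.0643 for TSC1 and -0.0467 to 0.0459 for NSF, and PLK2 vs PLK2(D223N) from -0.0211 to 0.281 for SNCB and -0.0266 to 0.00414 for NSF. The number of members called moved in PLK2 vs PLK2(D223N), to 1 with 6 libraries only and to between 0 and 1 with a library left out (1 without Vector replicate 1). Counts over all genes moved more, and the cause was not tested. PLK2 vs Vector (66 called) gave 116 with the DESeq2 test, 136 with no filter, 23 with 6 libraries only, 19 with limma, 379 with GC content and length trends removed and 13 (without PLK2 replicate 2) to 1656 (without Vector replicate 2) with a library left out. PLK2(D223N) vs Vector (3) gave 7 with the DESeq2 test, 5 with no filter, 8 with the trends removed and 2 to 347 (without Vector replicate 2) with a library left out. PLK2 vs PLK2(D223N) (21) gave 35 with no filter, 502 with 6 libraries only, 11 with limma, 92 with the trends removed and 9 (without PLK2(D223N) replicate 2) to 317 (without Vector replicate 1) with a library left out. Any of the 3 groups (47) gave 85 with the DESeq2 test, 74 with no filter, 19 with limma, 248 with the trends removed and 11 (without PLK2 replicate 2) to 882 (without Vector replicate 2) with a library left out. Deviations from the group means were weakly correlated between same-numbered libraries (correlations -0.107 to 0.126). With 3 libraries per group this cannot show whether same-numbered libraries were prepared together. With a replicate block 76, 4, 20 and 49 genes were called in the 4 tests, 0 of 5 members in each, and NPM1 in PLK2 vs PLK2(D223N) was at 0.12 (adjusted p = 0.919). Depth limits both synucleins, with at most 41 counts per library for SNCB and 6 for SNCG.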
